A study of Mus musculus with 6 samples.

Results

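The circadian clock genes described here are the 10 genes Arntl, Clock, Npas2, Per1, Per2, Per3, Cry1, Nr1d1, Nr1d2 and Dbp, found by their symbols among the 15953 genes of the deposited table, and all 10 were present. They were measured by RNA sequencing in 6 mouse liver libraries, 3 labelled Cgref1 KO and 3 labelled wild type, all from C57BL/6 mice. The labels name liver as the tissue and hepatocytes as the cell type, the RNA was enriched for mRNA, and the 3 libraries of a group are called biological replicates without word on animals or pools, so that p-values rest on library-to-library spread alone. The sources used here do not give age, sex, feeding, lighting, the hour of collection or the way Cgref1, a gene for a secreted calcium-binding protein, was deleted.

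The molecular clock is a feedback loop. CLOCK or its paralog NPAS2 pairs with ARNTL (also called BMAL1) and activates genes through E-box elements. Among these genes are the Per and Cry repressors, which close the loop, the nuclear receptors Nr1d1 and Nr1d2 (REV-ERB alpha and beta), which repress Arntl through ROR elements, and Dbp, a transcription factor that acts on D-box elements. In the liver of mice kept in light and dark, Nr1d1 peaks in the day, Dbp, Nr1d2 and Per3 follow later in the day, Per1 and Per2 peak around nightfall, Cry1 peaks in the night, and Arntl, Npas2 and Clock peak towards its end. The proportions of these transcripts in a liver thus depend on the hour.

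Promoter stretches with letter matches to elements of the loop are shown here. A letter match does not show binding, and no link between matches and the order of the libraries described below was tested. The stretches come from RefSeq promoter windows of GRCm38.p6, 250 bases before to 50 after a start site, which covered 9 of the 10 genes. They are written 5′ to 3′ on the gene's strand with matches in capitals.
Cry1: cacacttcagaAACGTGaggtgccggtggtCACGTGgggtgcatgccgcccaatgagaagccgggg
Per1: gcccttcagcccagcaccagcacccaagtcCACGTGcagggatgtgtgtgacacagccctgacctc
Nr1d1: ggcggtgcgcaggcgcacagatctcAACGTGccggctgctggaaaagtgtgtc
Per3: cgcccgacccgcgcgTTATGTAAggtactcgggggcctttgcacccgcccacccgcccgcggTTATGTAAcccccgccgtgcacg
Arntl: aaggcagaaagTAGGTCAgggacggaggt

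The Cry1 stretch lies on the minus strand at chr10:85185079-85185144 and holds an E-box (CACGTG) beside an E-prime box (CACGTT, read on the other strand). The Per1 stretch is on the plus strand at chr11:69098753-69098818 and holds an E-box. That of Nr1d1 is on the minus strand at chr11:98775378-98775430 and ends at the base before the start site, with an E-prime box on the other strand. The Per3 stretch, on the minus strand at chr4:151044801-151044885, holds a D-box (TTATGTAA) 2 times. The Arntl site, on the plus strand at chr7:113207530-113207558, lies after the start site and holds the ROR element core TAGGTCA. Both strands of all 32851 windows of this length were searched, and overlapping matches were allowed. An E-box stood in 7.15% of them, an E-prime box in 4.68%, a D-box (TTATGTAA or TTACGTAA) in 1.06% and the ROR core in 2.61%. No other match to these letters was found in the windows of the members, which says nothing of sites outside them.

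Library totals ran from 17627734 to 18366443 estimated counts, so depth differed little. Cgref1 had 7, 12 and 10 counts in the knockout-labelled libraries, against 7, 7 and 19 counts in the wild type libraries. These overlapping counts are too low to check a genotype, so genotypes are given as labelled. CPM below means counts scaled to the effective library size. Of the hepatocyte list 9 markers were in the table, none at 0, and their summed level was 79105 to 102800 CPM in knockout-labelled libraries and 78361 to 111360 CPM in wild type libraries. The summed Kupffer cell markers (8 of 8) stood at 274.2 to 294.7 CPM in knockout-labelled libraries, above the 223.6 to 231.5 CPM of the wild type libraries, and the stellate cell markers at 308.0 to 364.1 CPM, below the 365.5 to 473.2 CPM of the wild type libraries. Transcripts from a list of intestinal genes were seen in all libraries: 19 such genes, Fabp2 left out, had a summed count of 102, 108 and 168 in knockout-labelled replicates 1, 2 and 3, against 243, 142 and 430 in wild type replicates 1, 2 and 3. Of these genes 9 stayed under 1 CPM in every library, and the sum was 5.94 to 9.25 CPM in knockout-labelled and 7.54 to 23.4 CPM in wild type libraries. Whether they came from intestinal cells was not tested. The part of cells other than hepatocytes in the values below was not tested, and in bulk liver fewer cells of a type and less RNA per cell cannot be told apart.

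Wild type replicate 1 stood apart from the other libraries in the clock genes. It had the lowest level of 4 and the highest of another 4 of the 9 members that could be tested, while over all 12033 genes tested it was lowest in 24.1% and highest in 24.5%. The members' fold changes and the counts over gene lists are therefore given with and without it. This library was singled out on the members' own values, so part of the change in their fold changes without it was built in. The closing section also gives values without wild type replicates 1 and 3 together, which leaves only wild type replicate 2.

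No clock gene was called different between the Cgref1 KO and wild type livers. Of the 10 members 9 passed the low-count filter, and 0 of them were called by edgeR's quasi-likelihood test at a Benjamini-Hochberg adjusted p under 0.05, where 0.00831% of all genes tested (1 of 12033) were called. At an unadjusted p under 0.05 the count of members was 0 as well, against 5.16% of all genes. DESeq2 and limma-voom also called 0 members. The libraries of the groups overlapped in CPM for every member, including Npas2, which was not tested. Groups without overlap made up 10.8% of all tested genes, and 10 members are too few to tell 0 from that share. In the authors' deposited table the q-value of each member was 0.999.

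**Figure D1:**
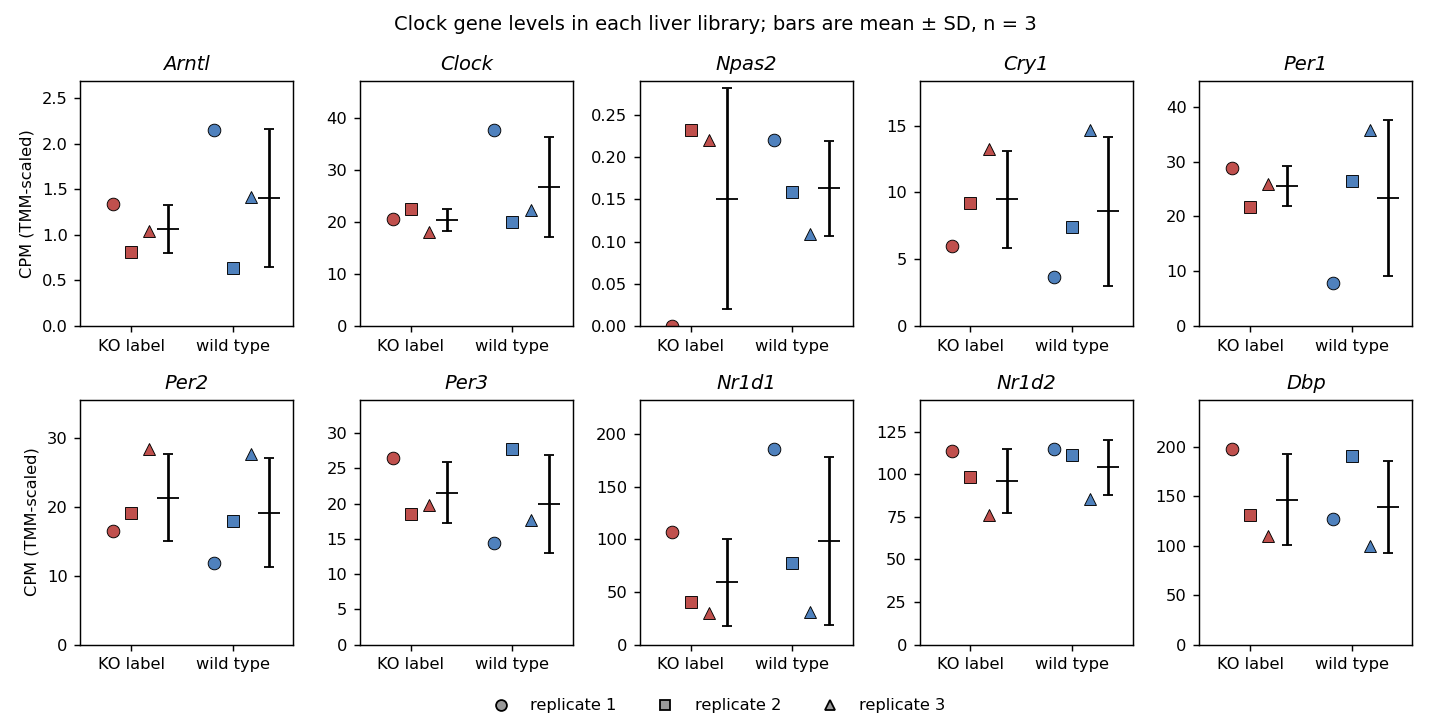
Level of each clock gene in CPM, on axes that start at 0, for the knockout-labelled libraries (red, left) and the wild type libraries (blue, right); symbols give the replicate and bars the mean ± SD (n = 3). The groups overlapped for all 10 genes, and the spread of Nr1d1 ran from 30.1 to 186.3 CPM.

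Arntl and Npas2 were the least abundant members of the loop in these livers. Per length, over all 6 libraries, Dbp had the highest mean at 130.5 TPM (transcripts scaled by gene length and library size). Nr1d1 followed with 41.3 TPM and Nr1d2 with 30.2 TPM. Per1 had 7.26, Per2 5.11, Per3 4.62, Cry1 4.43 and Clock 3.49 TPM. Arntl had 0.613 and Npas2 0.0533 TPM. Dbp stood above every other member in each library, Arntl and Npas2 below all the others in each. Between them the order depended on the library: Nr1d1 ranged from 14.9 to 99.0 TPM and thus lay on both sides of Nr1d2, which ranged from 21.9 to 35.5 TPM. The neighbours Per1, Per2, Per3, Cry1 and Clock likewise had overlapping ranges.

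Arntl, the partner that both CLOCK and NPAS2 need, lies on chromosome 7 (113207465 to 113314126, plus strand, GRCm38). It gave 23, 14 and 19 counts in knockout-labelled replicates 1, 2 and 3, against 39, 12 and 26 counts in wild type replicates 1, 2 and 3. In CPM this was 1.34, 0.813 and 1.05 in the knockout-labelled libraries, against 2.15, 0.637 and 1.42 in the wild type libraries. The highest and the lowest library were both wild type, replicates 1 and 2. Its log2 fold change was -0.39 (SE 0.43, edgeR adjusted p 0.988), with a 95% interval from -1.36 to 0.58. Without wild type replicate 1 it was 0.05 (SE 0.43). Such counts allow only a coarse comparison.

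Clock, on the minus strand of chromosome 5 (76209868 to 76304792), encodes the other subunit of the activator. Its level was 20.6, 22.5 and 18.2 CPM in the knockout-labelled libraries, against 37.7, 20.02 and 22.4 CPM in the wild type libraries. The wild type value of 37.7 CPM, in replicate 1, stood alone above 5 libraries between 18.2 and 22.5 CPM. The log2 fold change was -0.39 (SE 0.23, edgeR adjusted p 0.975, 95% interval -0.93 to 0.15) with all libraries and -0.06 (SE 0.13) without wild type replicate 1. Npas2, the paralog of Clock, was close to the detection limit, with 0, 4 and 4 counts in the knockout-labelled libraries and 4, 3 and 2 counts in the wild type libraries. It did not pass the filter. A count of 0 allows up to 3 counts, so these libraries cannot be told apart for Npas2.

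Nr1d1, the REV-ERB alpha repressor of Arntl, varied most. On the minus strand of chromosome 11 (98767932 to 98775333), it stood at 106.8, 40.8 and 30.1 CPM in knockout-labelled replicates 1, 2 and 3, against 186.3, 77.9 and 30.8 CPM in wild type replicates 1, 2 and 3. The highest library was 6.199 times the lowest, a ratio reached by 0.812% of the 11328 tested genes with a mean of at least 1 CPM. Within the groups the ratio was 3.55 among knockout-labelled and 6.06 among wild type libraries, while the means were 59.2 ± 41.5 CPM in knockout-labelled and 98.3 ± 79.8 CPM in wild type libraries (SD, n = 3 each) and differed by less than either SD. The log2 fold change was -0.73 (SE 0.87, edgeR adjusted p 0.988), with an interval from -3.04 to 1.58, and 0.11 (SE 0.82) without wild type replicate 1. The exons of Nr1d1 share 263 bases with those of Thra on the other strand, a thyroid hormone receptor gene, and no label or header says that counting used strand. Thra stood at 8.80, 5.63 and 7.32 CPM in knockout-labelled and 9.05, 11.05 and 6.65 CPM in wild type libraries. The part of shared reads in the values of either gene was not tested.

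Nr1d2, which encodes REV-ERB beta, followed the same order with a smaller range. It had 113.6, 98.4 and 76.2 CPM in the knockout-labelled libraries, against 115.2, 111.6 and 85.6 CPM in the wild type libraries. For both genes the order from high to low was wild type replicate 1, knockout-labelled 1, wild type 2, knockout-labelled 2, wild type 3 and knockout-labelled 3, so that the groups alternated. The log2 fold change of Nr1d2 was -0.12 (SE 0.16), with a 95% interval from -0.49 to 0.25.

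Cry1, a repressor of the activator pair, ran nearly the opposite way. It lies on the minus strand of chromosome 10 (85131700 to 85185064). Cry1 stood at 6.00, 9.18 and 13.3 CPM in knockout-labelled replicates 1, 2 and 3, against 3.64, 7.43 and 14.7 CPM in wild type replicates 1, 2 and 3. The library with most Nr1d1, wild type replicate 1, had least Cry1, and the 2 libraries with least Nr1d1, wild type and knockout-labelled replicate 3, had most. The ratio of Nr1d1 TPM to Cry1 TPM was 19.0, 4.71 and 2.42 in the knockout-labelled libraries, against 52.7, 11.1 and 2.20 in the wild type libraries. This ratio, chosen after the values were seen, was highest in replicate 1 and lowest in replicate 3 of either group. The Cry1 log2 fold change was 0.15 (SE 0.56, 95% interval -1.24 to 1.54) and -0.22 (SE 0.43) without wild type replicate 1.

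Per2, a partner of CRY proteins in repression, on the minus strand of chromosome 1 (91415982 to 91459324), behaved like Cry1. Its level was 16.5, 19.0 and 28.4 CPM in knockout-labelled replicates 1, 2 and 3, against 11.9, 17.9 and 27.6 CPM in wild type replicates 1, 2 and 3. In CPM the order of the 6 libraries was the exact reverse of that for Nr1d1. For Per2 the log2 fold change was 0.16 (SE 0.35, 95% interval -0.69 to 1.00), and -0.10 (SE 0.29) without wild type replicate 1.

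**Figure D2:**
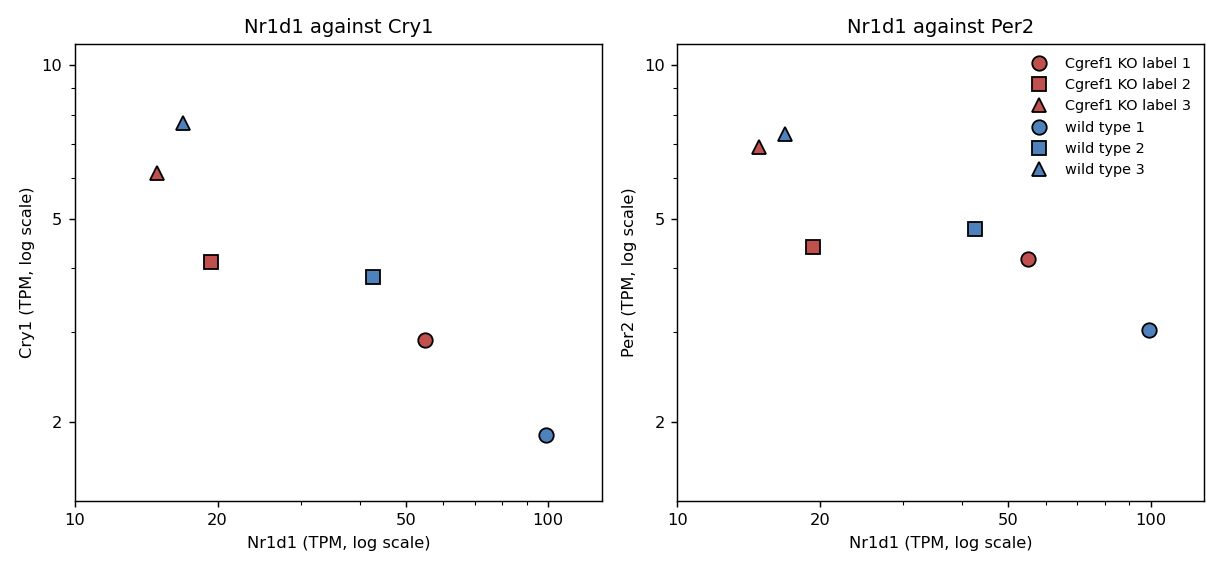
Nr1d1 against Cry1 (left) and Per2 (right) in TPM on log axes, 1 point for each library, red for knockout-labelled and blue for wild type. Wild type replicate 1 (99.0 TPM of Nr1d1 with 1.88 TPM of Cry1) lies at one end and replicate 3 of both groups at the other, with the groups intermixed between.

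Per1 and Per3 did not share this order. Per1, on the plus strand of chromosome 11 (69095217 to 69109960), had 28.9, 21.8 and 26.0 CPM in the knockout-labelled libraries, against 7.83, 26.5 and 35.8 CPM in the wild type libraries. Wild type replicate 1 was alone at the bottom and the other 5 libraries lay between 21.8 and 35.8 CPM. The ratio of highest to lowest was 4.57, reached by 1.54% of genes. The log2 fold change was 0.13 (SE 0.55, 95% interval -1.29 to 1.55), and without wild type replicate 1 it was -0.29 (SE 0.16, edgeR adjusted p 0.9995).

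Per3, the least needed of the Per paralogs for rhythm, on the minus strand of chromosome 4 (151003652 to 151044665), had 26.5, 18.5 and 19.8 CPM in the knockout-labelled libraries. In the wild type libraries it had 14.5, 27.8 and 17.7 CPM. Knockout-labelled replicate 1 and wild type replicate 2 were high and wild type replicate 1 low. For Per3 the log2 fold change was 0.11 (SE 0.25, 95% interval -0.48 to 0.69).

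Dbp, the proline- and acid-rich basic leucine zipper factor that carries the rhythm to liver enzymes, is on the plus strand of chromosome 7 (45705088 to 45710203). Its level was 198.2, 131.4 and 109.7 CPM in knockout-labelled replicates 1, 2 and 3, against 126.5, 190.7 and 99.8 CPM in wild type replicates 1, 2 and 3. As for Per3, knockout-labelled replicate 1 and wild type replicate 2 were the 2 highest libraries. The means were 146.4 ± 46.1 CPM in knockout-labelled and 139.0 ± 46.7 CPM in wild type libraries (SD, n = 3 each), and the log2 fold change was 0.08 (SE 0.32, 95% interval -0.70 to 0.85). Its sign depended on the scaling, with -0.01 when only library totals were used and -0.05 on TPM. Dbp exons share 539 bases with those of Sphk2 on the other strand, a sphingosine kinase gene, which stood at 34.5, 39.3 and 47.8 CPM in knockout-labelled and 50.5, 32.6 and 35.8 CPM in wild type libraries. Dbp and Nr1d1 were the members with estimated counts that were not whole, and how the reads of these overlaps were assigned is not stated in any label or header.

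**Figure D3:**
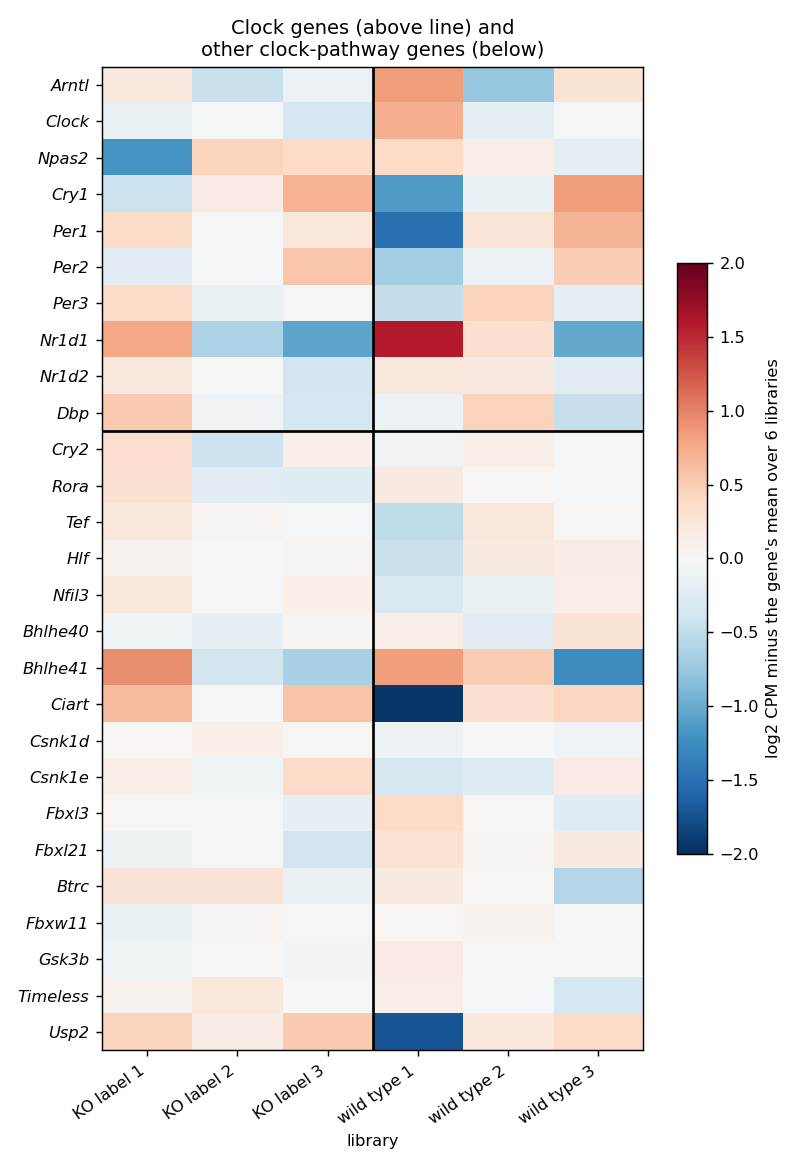
Log2 CPM of each gene less its mean over the 6 libraries, with knockout-labelled libraries left of the line and wild type libraries right of it; the 10 clock genes are above the line and other clock-pathway genes below. In wild type replicate 1 Nr1d1 (1.58) and Arntl (0.84) were high while Per1 (-1.49) and Cry1 (-1.14) were low; Npas2 rests on 0 to 4 counts.

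The arms of the loop that peak at opposite times, Arntl, Npas2 and Clock against the Per genes, the Nr1d genes and Dbp, were then set against each other library by library. The score of an arm is the mean over its genes of log2 CPM less each gene's mean over the 6 libraries, and no test was made of it. The positive arm scored -0.37, -0.01 and -0.02 in knockout-labelled replicates 1, 2 and 3, against 0.66, -0.28 and 0.02 in wild type replicates 1, 2 and 3. The negative arm scored 0.34, -0.15 and -0.17 in the knockout-labelled libraries, against -0.17, 0.26 and -0.12 in the wild type libraries. The negative arm was highest in knockout-labelled replicate 1 and wild type replicate 2, which also had the lowest positive arm. For knockout-labelled replicate 1 the low positive arm came from the 0 counts of Npas2: without that gene its positive arm was 0.03, above all but wild type replicates 1 and 3, while wild type replicate 2 was still lowest at -0.47.

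Positive less negative, the difference of the arms was -0.71, 0.14 and 0.15 in the knockout-labelled libraries, against 0.82, -0.54 and 0.14 in the wild type libraries. The means were -0.14 ± 0.49 for knockout-labelled and 0.14 ± 0.68 for wild type libraries (SD, n = 3 each), and each group held libraries on both sides of 0. Without Npas2 the difference was -0.31, -0.09 and -0.06 in the knockout-labelled libraries, against 0.95, -0.73 and 0.24 in the wild type libraries. Wild type replicates 1 and 2 were then the 2 ends and the knockout-labelled libraries lay between them.

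The negative arm did not move as a unit. The Per genes averaged 0.18, -0.06 and 0.25 in the knockout-labelled libraries, against -0.89, 0.20 and 0.33 in the wild type libraries. The Nr1d genes averaged 0.49, -0.31 and -0.71 in the knockout-labelled libraries, against 0.90, 0.25 and -0.61 in the wild type libraries. In wild type replicate 1 the Nr1d genes were thus at their highest and the Per genes at their lowest, and in the libraries numbered 3 of both groups the Nr1d genes were lowest and the Per genes highest. Whether the livers were taken at different hours was not tested, since no source used here gives the hour.

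**Figure D4:**
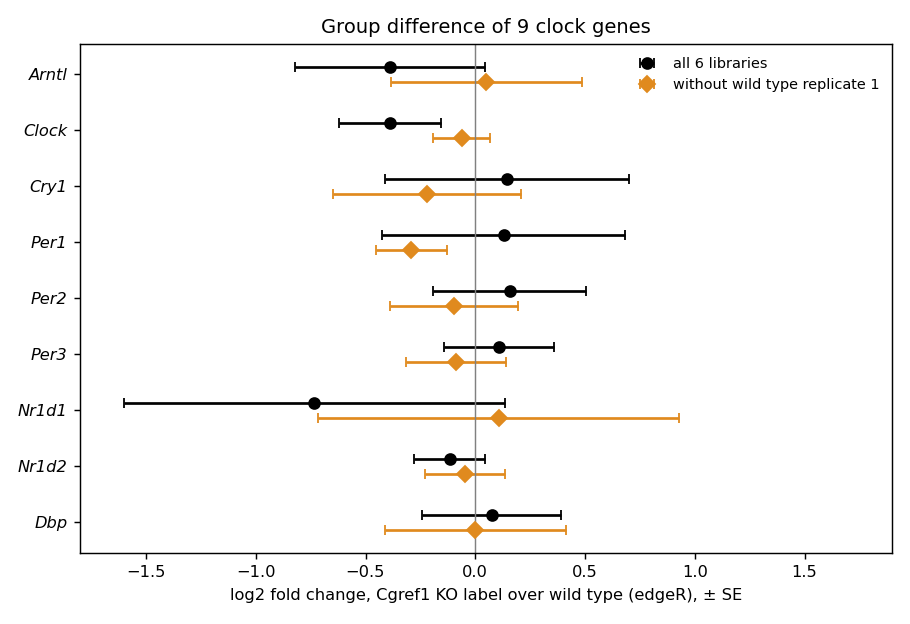
Log2 fold change of the 9 tested clock genes, knockout-labelled over wild type, with SE, from edgeR with all 6 libraries (black) and without wild type replicate 1 (orange). No gene passed the threshold in either fit, and the value of Nr1d1 was -0.73 in the first and 0.11 in the second.

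The signs of the tested members' fold changes depended on single libraries, except for Clock. The log2 fold change of Clock stayed negative whichever library was left out, from -0.55 to -0.06. With all libraries 5 tested members had positive log2 fold changes and 4 had negative ones (median 0.08, against 0.00 over all genes tested). Without wild type replicate 1 there were 3 positive and 6 negative values with a median of -0.06, and the sign turned for Arntl, Per1, Per2, Per3, Cry1 and Nr1d1. The values not yet given were then -0.09 (SE 0.23) for Per3, -0.05 (SE 0.18) for Nr1d2 and 3e-04 (SE 0.41) for Dbp. Leaving out knockout-labelled replicate 1 turned the sign of Per3 and Dbp, and leaving out knockout-labelled replicate 3 that of Per2, Cry1 and Nr1d2. Dbp also turned without wild type replicate 3. None of these values passed the edgeR threshold in any of these fits (0 members).

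Other genes of the clock pathway came from a list of 20 (19 found in the table, 18 tested). None was called by edgeR (0 higher, 0 lower), 0 had an unadjusted p under 0.05, and 11 log2 fold changes were positive and 7 negative, with a median of 0.09. Without wild type replicate 1, when 19 could be tested, 10 were positive and 9 negative and the median was 0.02, again with 0 called. Tef and Hlf encode the relatives of DBP that bind the same D-box. Tef had 193.1, 173.9 and 162.7 CPM in the knockout-labelled libraries, against 117.7, 194.4 and 171.2 CPM in the wild type libraries. Hlf had 65.9, 62.1 and 64.8 CPM, against 46.1, 70.7 and 69.0 CPM in the wild type libraries, so that both were lowest in wild type replicate 1.

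Rora encodes an activator that competes with REV-ERB at ROR elements. It had 68.5, 47.4 and 46.7 CPM in the knockout-labelled libraries, against 62.6, 56.4 and 53.9 CPM in the wild type libraries, and a log2 fold change of -0.09 (SE 0.15). Bhlhe40 (DEC1), a repressor at E-boxes, had -0.13 (SE 0.13), and Csnk1d, the kinase that marks PER proteins, had 0.12 (SE 0.09).

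Outside the rule for named genes, Ciart, Usp2 and Bhlhe41 were chosen after their values were seen, for their spread. Ciart, which encodes the repressor CHRONO, had 18.8, 12.02 and 17.9 CPM in the knockout-labelled libraries, against 3.03, 15.03 and 16.2 CPM in the wild type libraries. Usp2, a deubiquitinase gene under clock control, had 63.1, 51.7 and 66.6 CPM, against 14.0, 54.0 and 60.9 CPM in the wild type libraries. As with Per1, wild type replicate 1 alone was low. Bhlhe41 (DEC2) had 13.2, 5.29 and 4.35 CPM in knockout-labelled and 12.4, 9.77 and 2.78 CPM in wild type libraries, with both libraries numbered 1 highest and both numbered 3 lowest, as for Nr1d1.

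Genes that follow the clock in mouse liver were taken from a list of 25, all tested. Again 0 were called in either direction, 17 log2 fold changes were positive and 8 negative, and the median was 0.13. Wild type replicate 1 was lowest in 13 of them (52.0%, against 24.1% of all genes tested). At an unadjusted p under 0.05 there were 4 genes of the 25, where 5.16% of all genes tested passed. Without wild type replicate 1 that count was 1, with 15 positive and 10 negative log2 fold changes and a median of 0.04.

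Upp2, a uridine phosphorylase gene, had 884.8, 708.7 and 761.7 CPM in the knockout-labelled libraries, against 481.2, 650.9 and 605.9 CPM in the wild type libraries. The groups did not overlap, but the log2 fold change of 0.44 (SE 0.14) had an edgeR adjusted p of 0.855, and 0.31 (SE 0.12) remained without wild type replicate 1. Gys2, the liver glycogen synthase gene, had 0.35 (SE 0.13, adjusted p 0.926 by edgeR), and Nr1i3, which encodes the xenobiotic receptor CAR and is a target of DBP and its relatives, had 0.33 (SE 0.15). Both were higher in each knockout-labelled library than in any wild type one. Without wild type replicate 1 their log2 fold changes were 0.21 and 0.16. Groups without overlap were found for 3 of the 25 genes of this list, a share similar to the 10.8% of all genes tested. Cyp2a5, a coumarin hydroxylase gene, had 0.43 (SE 0.18), with overlapping groups.

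Among the most abundant members of that list, Alas1, the first enzyme of haem synthesis, had 913.0, 1227 and 434.3 CPM in the knockout-labelled libraries, against 170.1, 902.7 and 692.7 CPM in the wild type libraries. Por, the reductase that supplies electrons to cytochromes P450, had 459.4, 446.9 and 605.1 CPM, against 203.1, 411.0 and 535.3 CPM in the wild type libraries. Both were lowest in wild type replicate 1. Ppara, the receptor gene for fatty acid response, had a log2 fold change of 0.04 (SE 0.13).

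**Figure D5:**
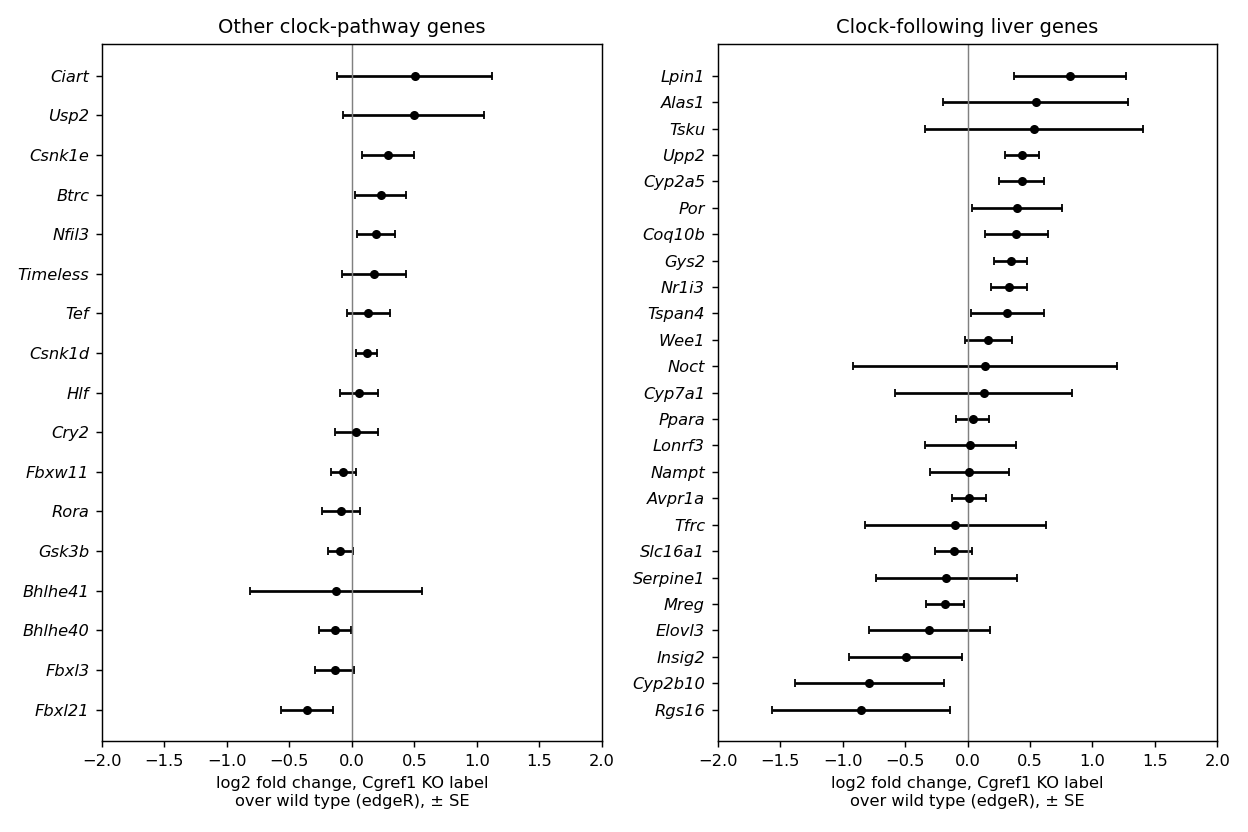
Log2 fold change, knockout-labelled over wild type, with SE from edgeR, for other clock-pathway genes (left) and 25 clock-following liver genes (right). None passed the adjusted threshold, and the values ran from -0.36 to 0.50 on the left and from -0.85 to 0.82 on the right.

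The genes most like Arntl and Dbp across the 6 libraries were found by the smallest root mean square difference of centred log2 CPM among 11319 tested genes with a mean of at least 1 CPM, members left out. Among the nearest to Arntl were Ppp1r3c (0.14), Fst (0.22), Insig1 (0.23) and Gldc (0.23). Ppp1r3c, a glycogen-targeting phosphatase subunit gene, had 31.9, 20.6 and 22.0 CPM in the knockout-labelled libraries, against 56.5, 13.9 and 33.0 CPM in the wild type libraries, with the same highest and lowest library as Arntl. Nearest to Dbp were Klf16 (0.09), Pcbp4 (0.11), Gm11127 (0.11), Sipa1l3 (0.11) and Npc1 (0.12). The profile of Arntl rests on 12 to 39 counts in a library. Fst (0.871 to 1.77 CPM) and Gm11127 (0.872 to 1.86 CPM) were low as well. No background distance was taken, so a small distance over 6 libraries does not show that genes share a control.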

How the data were processed

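The deposited table gave, per the file headers, estimated (expected) counts, FPKM and TPM for each gene and library, a log2 fold change between the groups and p-values and q-values from DESeq2. The submitters' processing notes name HISAT, Bowtie2, RSEM and DESeq2 without versions or settings. The expected counts that the authors deposited were not normalized, and between 92.3% and 92.9% of them were whole numbers, by library. The authors' FPKM and TPM values were used for levels per length and in alternatives. The authors' deposited log2 fold change had the sign of knockout over wild type. The authors' p-values and q-values were only quoted. The 6 columns of group means and 9 columns comparing single libraries were not used. The table's chromosome names are those of GRCm38. Gene positions, strands and overlaps come from GENCODE M21 (GRCm38), and the strand printed for Clock and Per3 in the table is the opposite one.

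Counts were rounded, filtered by filterByExpr (minimum count 10, leaving 12033 genes), scaled by TMM (factors 0.956 to 1.05) and tested over all genes by robust quasi-likelihood in edgeR 4.0.16 under R 4.3.3, with Benjamini-Hochberg adjustment at 0.05. CPM uses the TMM-scaled totals. Log2 CPM for the arm scores has a prior count of 2. Library totals of 17627734 to 18366443 set the counting error, and a count of 0 allows up to 3 counts, for counting error only. Intervals are at 95%. Named genes are the members, list genes with an unadjusted p under 0.05 or among the 6 of highest mean CPM in their list, overlapping neighbours, and the 5 nearest genes to Arntl and to Dbp. A few of these are left out of the text and figures and not reported here. The members and lists were chosen with earlier results of these data known. Steps were tested on simulated data. Alternatives were other scalings, filters, DESeq2 1.42.0, limma 3.58.1 (voom, or trend on log2 FPKM with pseudocounts 1 and 0.1 or on log2 TPM with 1), a replicate block, and left-out libraries. The positive arm without Npas2 was added after seeing the data.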

Additional observations from a re-analysis of the deposited data

How the results depend on the processing

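No clock gene, other clock-pathway gene or clock-following gene passed the adjusted threshold under any of the 18 alternatives run (0 calls each). Over all genes the count of calls was 1 in edgeR, and 0 at a mean of at least 5 CPM, 28 in DESeq2, 34 with the replicate block, 1 to 5 when a library was left out (5 when it was knockout-labelled replicate 1) and 0 with wild type 1 and 3 both left out. Of 161 values of members under alternatives, 140 kept their sign and 21 turned, and the smallest adjusted p was 0.331 (Nr1d1 with the replicate block, log2 fold change -0.61). Left-out libraries gave ranges of -0.7322 to 0.0507 for Arntl, -0.55 to -0.06 for Clock, -0.29 to 0.56 for Per1, -0.11 to 0.52 for Per2, -0.0877 to 0.4282 for Per3, -0.22 to 0.77 for Cry1, -1.47 to 0.11 for Nr1d1, -0.2541 to 0.0258 for Nr1d2 and -0.21 to 0.38 for Dbp, and of -0.62 to 0.06 for the difference of the arms. Without wild type replicates 1 and 3 only wild type replicate 2 was left, so the values follow that library and are not a comparison of groups. Its Arntl level (0.637 CPM) was the lowest and its Per3 level (27.8 CPM) the highest of all libraries. The values were 0.72 for Arntl, 0.0153 for Clock, -0.0656 for Per1, -0.38 for Per3, -0.40 for Dbp, -0.0502 for the median of the other clock genes and 0.40 for the difference of the arms, against -0.28 with all libraries. Dbp also turned with library totals (-0.0111), FPKM at a pseudocount of 1 (-0.0018) and of 0.1 (-0.0017) and TPM (-0.054). TPM turned the median of the other clock genes (-0.0279), and FPKM at a pseudocount of 1 and TPM turned that of the clock-following genes (-0.0076 and -0.0322). The cause was not tested.

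Same-numbered libraries deviated together with correlations across genes of 0.28, 0.06 and 0.35 for replicates 1, 2 and 3. All 6 libraries correlated best with their own number in the other group, which is not part of the design. Each group was centred on its own mean first, so deviations cancel within a group and some match across groups must appear. Chi-square over degrees of freedom was also taken, on counts without centring. It weighs abundant genes most, so it cannot decide whether same-numbered libraries belong together. Among the wild type libraries, knockout-labelled replicates 1, 2 and 3 differed least from replicate 2 (20.4, 38.3 and 50.7). The closest pair of all was knockout-labelled replicates 2 and 3 (15.7), while knockout-labelled replicate 1 gave 63.3 and 76.7 with these 2. Knockout-labelled replicate 1 gave 39.3 with wild type 1, and replicate 3 gave 90.3 with wild type 3. The samples share only a number in the labels, so the fit without the replicate block is the one given. With the block the SE fell from 0.87 to 0.17 for Nr1d1, from 0.56 to 0.18 for Cry1 and from 0.35 to 0.12 for Per2. It rose from 0.55 to 0.68 for Per1 and from 0.25 to 0.30 for Per3. Much of the spread behind the wide intervals of Nr1d1, Cry1 and Per2 thus went with the replicate number. Whether that number marks a pairing or a batch is not stated and was not tested. Depth limits Npas2 and Arntl, with at most 4 and 39 counts in a library.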

Other observations

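Glucocorticoids also act on Per1, and whether they did so in these livers was not tested. A list of 8 genes that respond to glucocorticoids had its highest sum in the libraries numbered 3 of both groups, with 1061, 1041 and 1950 CPM in knockout-labelled replicates 1, 2 and 3, against 693.3, 685.0 and 1844 CPM in wild type replicates 1, 2 and 3. Per1 was highest in wild type replicate 3 (35.8 CPM). Among knockout-labelled libraries it was highest in replicate 1 (28.9 CPM, against 26.0 CPM in replicate 3). Tsc22d3, which encodes the glucocorticoid-induced leucine zipper, had 56.5, 66.0 and 120.3 CPM in the knockout-labelled libraries, against 29.3, 39.7 and 154.3 CPM in the wild type libraries, and a log2 fold change of 0.12 (SE 0.78). Fkbp5, a chaperone gene of the receptor, had 40.8, 48.3 and 49.6 CPM, against 13.5, 25.1 and 62.8 CPM in the wild type libraries. All 8 log2 fold changes of this list were positive, from 0.12 to 1.36 with a median of 0.48, and 7 of its genes were lowest in wild type replicate 1. By edgeR 0 were called and 1 had an unadjusted p under 0.05. The groups did not overlap for 2 of the genes, where 10.8% of all genes tested had groups without overlap. These were Zbtb16, with 22.4, 15.6 and 22.8 CPM in knockout-labelled and 2.43, 15.1 and 6.22 CPM in wild type libraries, and Lcn2, with 5.59, 5.29 and 8.48 CPM in knockout-labelled and 1.99, 2.97 and 3.87 CPM in wild type libraries (log2 fold change 1.13, SE 0.28, edgeR adjusted p 0.740). For Zbtb16 only 15.6 against 15.1 CPM kept the groups apart. Tsc22d3, Fkbp5, Zbtb16 and Lcn2 lie outside the rule for named genes, and Zbtb16 and Lcn2 were picked by their values. A list of 8 heat- and cold-responsive genes summed to 1315, 1585 and 1714 CPM in the knockout-labelled libraries, against 1230, 1216 and 1899 CPM in the wild type libraries. The summed levels of the groups overlapped for both lists.

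The same measure of likeness, applied to Nr1d1 and Cry1 after their values had been seen, gave 1810046K07Rik (0.22) and the immediate early gene Egr1 (0.26) nearest to Nr1d1, and Slc25a51 (0.11) and Shb (0.13) nearest to Cry1. Egr1 stood at 6.12, 2.03 and 1.98 CPM in the knockout-labelled libraries, against 12.1, 4.83 and 1.15 CPM in the wild type libraries. Slc25a51, a mitochondrial carrier gene, stood at 25.1, 33.6 and 51.9 CPM, against 17.4, 29.3 and 56.6 CPM in the wild type libraries. Noct, a clock-following gene for a phosphatase, lies outside the rule for named genes and was chosen after its values were seen. Noct had 17.1, 36.8 and 57.1 CPM in knockout-labelled replicates 1, 2 and 3, against 4.74, 22.5 and 73.3 CPM in wild type replicates 1, 2 and 3, the order of Cry1.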
